A study of Mus musculus with 8 samples.

Results

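The 10 genes described here were the insulin-like growth factor (IGF) ligands Igf1 and Igf2, the receptors Igf1r and Igf2r, and the binding proteins Igfbp2, Igfbp3, Igfbp4, Igfbp5, Igfbp6 and Igfbp7. They were taken by gene name from the 55679 genes of the deposited table, and all 10 passed the filter on low values. RNA-seq was performed on left ventricles of 8 male wild-type C57BL/6J mice, whose age was not given in the sources used here. The control group (4 libraries) received saline and the ANG II group (4 libraries) received angiotensin II at 1500 ng/kg/min, in both for 7 days from an osmotic mini-pump under the skin. Blood was washed out of the hearts with saline before dissection, and RNA was taken from bulk ventricle, not from sorted cells. The study screened such ventricles for immune-related genes in hypertrophy caused by raised blood pressure.

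IGF1 and IGF2 are secreted peptides that signal through the IGF1 receptor, a tyrosine kinase whose activation runs through insulin receptor substrates, PI3K, Akt and mTOR to protein synthesis and cell growth. The IGF2 receptor, also the mannose 6-phosphate receptor, carries lysosomal enzymes and clears IGF2 without a kinase of its own. The binding proteins hold the ligands in extracellular fluid and matrix, where proteases release them, and in the heart this system is known for its part in physiological growth and in repair.

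Expression was deposited as FPKM, fragments scaled by library size and by a transcript length that matched the mean over a gene's annotated transcripts. Comparisons of level between genes rest on that length. Igfbp5, for example, had more fragments than Igfbp4 in every library but a lower FPKM. The libraries held 14455720 to 16564940 fragments, read from the steps of the low FPKM values. Mitochondrially encoded genes took 26.3% to 27.0% of the fragments in control and 19.2% to 21.8% in ANG II, and the median gene tested stood 0.15 higher in ANG II on the log2 scale. Values under other scalings of the libraries are therefore given beside the members. Means are stated ± SD over the 4 libraries of a group. Of the ventricular cardiomyocyte markers, Myl2 averaged 10947 FPKM in control against 7890 FPKM in ANG II, and the 5 atrial markers summed to 6.70 to 55.2 FPKM in control and 61.0 to 241 FPKM in ANG II. All 5 hepatocyte markers also stayed under 1 FPKM, with Fgb and Serpina1a listed at 0 throughout. Tagln, a smooth muscle gene, was listed under 1 FPKM in every library while Acta2, another, averaged 108 FPKM in control, so a value near 0 in this table is reported as listed and not as absence.

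Upstream sequence is shown for 4 of the 6 binding proteins that rose, those whose first window held a core promoter motif searched for. The windows of Igfbp3 and Igfbp5 held none. Each window is the 250 bases before the start of the RefSeq gene on GRCm38.p6, and none of these 4 windows overlaps an annotated exon of GENCODE M21. They lie at chr1:72824230-72824479 on the plus strand (Igfbp2), chr5:77408046-77408295 on the minus strand (Igfbp7), chr11:99040994-99041243 on the plus strand (Igfbp4) and chr15:102143936-102144185 on the plus strand (Igfbp6). Capitals mark matches, on either strand, to the GC box (GGGCGG, here also read as CCGCCC), the TATA box (TATAAA, here also read as TTTATA) and the CCAAT box.
Igfbp2: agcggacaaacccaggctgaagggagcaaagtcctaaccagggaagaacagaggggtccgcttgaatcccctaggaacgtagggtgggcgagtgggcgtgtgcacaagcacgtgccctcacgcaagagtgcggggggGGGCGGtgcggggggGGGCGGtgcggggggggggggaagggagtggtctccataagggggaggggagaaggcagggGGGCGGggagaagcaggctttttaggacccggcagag
Igfbp7: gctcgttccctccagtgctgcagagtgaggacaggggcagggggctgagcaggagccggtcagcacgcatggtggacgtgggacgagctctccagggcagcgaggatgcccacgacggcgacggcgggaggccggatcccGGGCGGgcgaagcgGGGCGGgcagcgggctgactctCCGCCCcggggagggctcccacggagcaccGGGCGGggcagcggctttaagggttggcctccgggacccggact
Igfbp4: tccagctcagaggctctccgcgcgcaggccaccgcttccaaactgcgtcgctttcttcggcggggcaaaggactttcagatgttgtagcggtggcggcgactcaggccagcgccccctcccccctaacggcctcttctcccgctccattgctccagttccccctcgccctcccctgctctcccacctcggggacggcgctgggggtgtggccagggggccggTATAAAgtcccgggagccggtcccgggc
Igfbp6: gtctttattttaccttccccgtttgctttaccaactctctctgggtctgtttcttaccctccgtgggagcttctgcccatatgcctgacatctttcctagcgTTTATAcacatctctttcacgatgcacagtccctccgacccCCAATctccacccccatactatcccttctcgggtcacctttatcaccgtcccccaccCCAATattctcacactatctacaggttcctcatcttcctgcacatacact
The Igfbp2 window held 3 GC boxes and the Igfbp7 window 4, with no TATA box in either. A second RefSeq window of Igfbp2, not shown, held no GC box and 1 AP-1 motif. The Igfbp4 window held 1 TATA box close to its 3′ end and no GC box. The Igfbp6 window, the poorest of these in G and C (49.6% of bases, against 74.0% for Igfbp7), held 2 CCAAT boxes and 1 TATA box on the opposite strand. Over all 32851 RefSeq windows of 250 bases in the mouse genome, 32.7% held a GC box, 12.4% a TATA box and 33.8% a CCAAT box. RefSeq gave 14 windows for the 10 members, of which 6 held a GC box, 2 a TATA box and 3 a CCAAT box. An AP-1 motif (TGANTCA) was found in 2 of the 14, and in 6.75% of all windows. These are matches of letters only.

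In the ANG II group, 7 of the 10 genes rose and 0 fell, at an adjusted p-value under 0.05 and an absolute log2 fold change above 0.5. The genes that rose were Igf1 and all 6 binding proteins, while the receptors and Igf2 did not pass. Over all 19364 genes tested, 14.0% rose and 1.41% fell by the same rule (limma with Benjamini-Hochberg adjustment). No member was lower at an unadjusted p-value under 0.05, and voom on the recovered fragments called 0 members lower. The median log2 fold change was 0.76 over the members and 0.15 over all genes tested. The 4 ANG II libraries lay above all 4 control libraries for 7 members (Igf1, Igf2r, Igfbp2, Igfbp4, Igfbp5, Igfbp6 and Igfbp7), and 28.7% of all genes tested were separated in that direction. In these bulk samples, more cells of a type and more RNA per cell cannot be told apart, and neither can fewer cells and less RNA per cell.

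**Figure D1:**
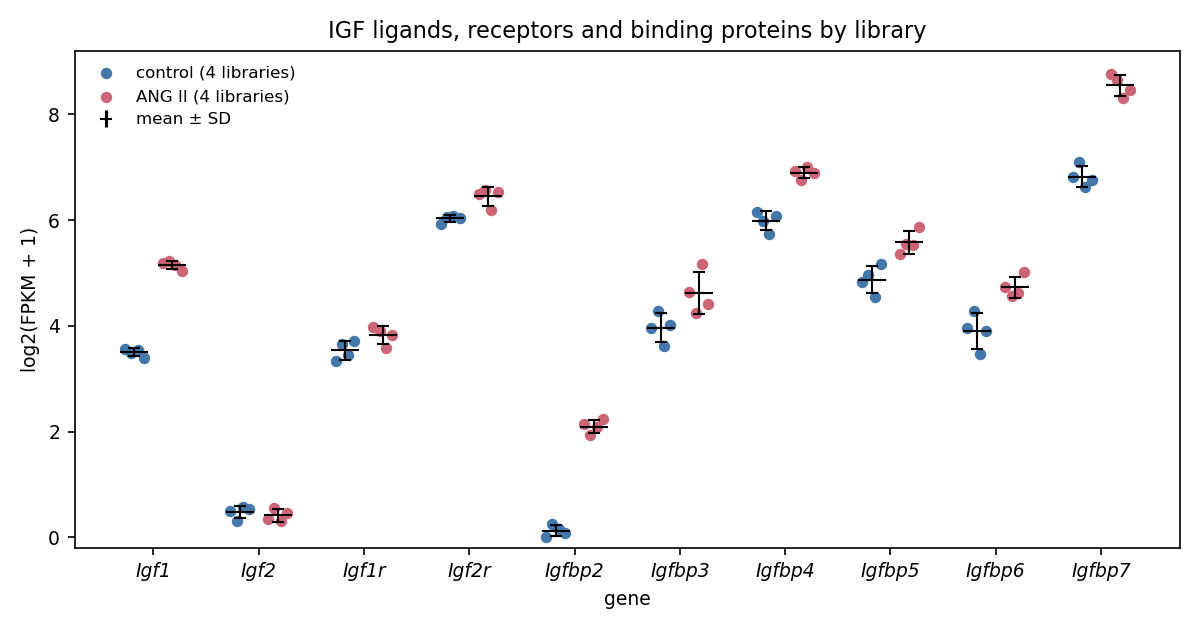
Level of each member in every library, as log2(FPKM + 1) on the vertical axis and gene on the horizontal axis. Points are single libraries (blue, control, n = 4; red, ANG II, n = 4), and the black bars give the mean ± SD of the 4 values on that scale. The 2 groups are apart for Igf1, Igf2r, Igfbp2, Igfbp4, Igfbp5, Igfbp6 and Igfbp7 and overlap for Igf2, Igf1r and Igfbp3.

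Markers of several cell types differed between the groups alongside these genes. All 8 macrophage markers rose, and their sum ranged from 173 to 214 FPKM in control and from 429 to 578 FPKM in ANG II. Of the fibroblast markers, 7 of 8 rose, with a sum of 1083 to 1459 FPKM in control and 2285 to 2589 FPKM in ANG II. Gsn was the exception, with a log2 fold change of -0.50 (limma, adjusted p = 0.028), just short of the fold threshold. The endothelial sum ranged from 494 to 534 FPKM in control and from 558 to 653 FPKM in ANG II, with 1 of 8 markers (Pecam1) past both thresholds, and the mural sum overlapped between the groups (486 to 559 against 547 to 618 FPKM), with 3 of 8 markers higher. The ventricular cardiomyocyte sum was lower in ANG II (51302 to 52158 against 38486 to 40871 FPKM), with 2 of 8 markers called lower, Myh6 and Tnni3. The atrial sum was higher in every ANG II library, with mean levels of 15.7 against 63.5 FPKM for Myl4 and 12.0 against 47.6 FPKM for Myl7 (control against ANG II), while Bmp10 stayed under 1 FPKM in all 8 libraries. None of the 6 mesothelial markers and none of the 5 adipocyte markers tested passed both thresholds. Of the skeletal muscle markers, Tnnt3 and Acta1, the latter also a heart gene, passed as higher, while Myh1, Myh2 and Myh4 stayed under 1 FPKM. The part of these cell types in the changes of Igf1 and the binding proteins was not tested.

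Igf1 (ENSMUSG00000020053, chr10:87858265-87937042, plus strand, GRCm38), the growth factor ligand, rose 3.35-fold in ANG II. Its level was 10.8, 10.1, 10.7 and 9.55 FPKM in control libraries 1 to 4, and 35.3, 36.3, 34.7 and 31.7 FPKM in ANG II libraries 1 to 4. The 4 values of each group lay close together and the groups were far apart. The control mean was 10.3 ± 0.578 FPKM and the ANG II mean 34.5 ± 1.97 FPKM. The log2 fold change was 1.65 (SE 0.0645, 95% interval 1.51 to 1.79; limma, adjusted p = 1.21e-06), which ranked 183 among the 2708 genes that rose. It was 1.43 both with median-of-ratios scaling and with quantile normalization. About 1233 fragments in control and 4209 in ANG II, over 4 libraries each, stood behind these values.

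Igf2 (ENSMUSG00000048583, chr7:142650766-142666816, minus strand), the imprinted fetal ligand, was near the limit of detection in both groups. It stood at 0.415, 0.240, 0.483 and 0.458 FPKM in control, from 12, 7, 16 and 14 fragments. In ANG II it stood at 0.264, 0.470, 0.231 and 0.376 FPKM, from 8, 15, 7 and 12 fragments. The groups overlapped, with the lowest values in ANG II 3 and control 2. The ANG II to control ratio of fragments per library size was 0.839, with a 95% exact interval of 0.542 to 1.29 that covers counting error only. The log2 fold change of -0.07 (95% interval -0.29 to 0.16; limma, adjusted p = 0.652) did not pass, so no difference was detectable at this depth. Under median-of-ratios scaling it was -0.13. Of its exon bases, 62.8% are also covered by the readthrough gene Gm49394 on the same strand, which was listed at 0 in all 8 libraries.

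The ratio of the 2 ligands was read within each library, where the scaling of libraries drops out. Igf1 exceeded Igf2 by 20.9-fold to 42.3-fold in control and by 77.1-fold to 149.7-fold in ANG II. Every ANG II ratio was above every control ratio. The ratio rests on few Igf2 fragments, so its size is imprecise.

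Of the receptors, neither passed both thresholds. Igf1r (ENSMUSG00000005533, chr7:67952827-68233668, plus strand), the signalling receptor, stood at 9.04, 11.6, 9.87 and 12.1 FPKM in control and at 14.7, 14.0, 11.0 and 13.1 FPKM in ANG II. ANG II 3 lay within the control range, so the groups overlapped. The means were 10.6 ± 1.43 and 13.2 ± 1.62 FPKM. By limma this was 0.29 on the log2 scale (SE 0.111, 95% interval 0.04 to 0.54, adjusted p = 0.0734), and an exact permutation test, two-sided, gave p = 0.0857. Under median-of-ratios scaling the log2 fold change was 0.08 (limma, adjusted p = 0.673).

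Igf2r (ENSMUSG00000023830, chr17:12682406-12769664, minus strand), the imprinted mannose 6-phosphate receptor, was more abundant than Igf1r in every library. It stood at 60.0, 65.9, 66.9 and 64.8 FPKM in control and at 89.3, 94.0, 71.8 and 91.7 FPKM in ANG II. All ANG II values were above all control values, with ANG II 3 the closest to control. The means were 64.4 ± 3.05 and 86.7 ± 10.1 FPKM, and the limma estimate of 0.42 (log2; SE 0.0836, adjusted p = 0.00396) missed the fold threshold. Without ANG II 3 it passed both thresholds (log2 fold change 0.50, limma, adjusted p = 0.000247), while under median-of-ratios scaling the log2 fold change was 0.19 (limma, adjusted p = 0.139). Airn, the long noncoding RNA transcribed antisense across Igf2r, averaged 26.2 ± 1.74 against 25.0 ± 2.07 FPKM (control against ANG II), with overlapping groups, and the exons of both genes do not overlap. Airn had a log2 fold change of -0.06 as deposited (limma, adjusted p = 0.534) and of -0.29 under median-of-ratios scaling (limma, adjusted p = 0.00822).

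Read within each library, the Igf2r to Igf1r ratio ranged from 5.36 to 6.78 in control and from 6.06 to 6.98 in ANG II, and these ranges overlapped. The Igf1 to Igf1r ratio, ligand over signalling receptor, averaged 0.987 ± 0.186 in control against 2.64 ± 0.356 in ANG II. Its 4 ANG II values, from 2.39 to 3.15, were all above its 4 control values, from 0.790 to 1.20.

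Igfbp7 (ENSMUSG00000036256, chr5:77349240-77408041, minus strand), a binding protein of low IGF affinity found in vessel walls and matrix, had the highest FPKM of the members in both groups and rose 3.33-fold. Its level was 112, 136, 97.2 and 107 FPKM in control and 434, 401, 316 and 352 FPKM in ANG II. The lowest ANG II value, in ANG II 3, was more than 2 times the highest control value. The mean went from 113 ± 16.3 to 376 ± 52.0 FPKM. On the log2 scale limma gave 1.73 (SE 0.117, adjusted p = 1.03e-05), rank 160 among the genes that rose, and 1.50 under median-of-ratios scaling. Of its exon bases, 7.03% are covered by exons of Polr2b on the opposite strand, and whether reads were counted by strand was not given in the sources used here.

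Igfbp2 (ENSMUSG00000039323, chr1:72824503-72852474, plus strand), a binding protein that also binds matrix and integrins, went from the limit of detection to a few FPKM. It was listed at 0, 0.192, 0.113 and 0.0612 FPKM in control, from 0, 3, 2 and 1 fragments. In ANG II it stood at 3.40, 2.82, 3.22 and 3.69 FPKM, from 55, 48, 52 and 63 fragments. No control value came near an ANG II value, and the 0 of control 1 allows up to 0.194 FPKM (3 fragments). With 6 fragments in control and 218 in ANG II, the ratio per library size was 35.6, with a 95% exact interval of 16.1 to 98.0 for counting error only. On the log2(FPKM + 1) scale, which understates the change of low genes, the log2 fold change was 1.97 (SE 0.108; limma, adjusted p = 3.96e-06), rank 104 among the genes that rose, and it was 1.87 under median-of-ratios scaling.

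Igfbp5 (ENSMUSG00000026185, chr1:72857932-72874884, minus strand), which binds matrix and is the neighbour of Igfbp2 on chromosome 1, was already well expressed in control. It stood at 27.4, 30.1, 22.4 and 34.8 FPKM in control and at 39.8, 45.8, 45.4 and 57.6 FPKM in ANG II. The groups did not overlap, and control 4 lay closest to ANG II 1. The means were 28.7 ± 5.19 and 47.1 ± 7.49 FPKM. In the limma fit the difference was 0.70 (log2; SE 0.139, adjusted p = 0.00368). Under median-of-ratios scaling it was 0.48 (limma, adjusted p = 0.0283), under the fold threshold. In the ANG II libraries Igfbp5 stood 11.7-fold to 16.3-fold above Igfbp2.

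Igfbp4 (ENSMUSG00000017493, chr11:99041244-99054392, plus strand), an inhibitor of IGF action that pappalysin-1 cleaves, was second among the binding proteins in FPKM. Its level was 70.2, 61.9, 52.4 and 66.8 FPKM in control and 121, 108, 128 and 117 FPKM in ANG II. Control 3 was lowest and ANG II 3 highest, and the groups were apart. The means were 62.8 ± 7.75 and 118 ± 8.30 FPKM, a 1.88-fold rise. On the log2 scale limma gave 0.91 (SE 0.0898, adjusted p = 8.06e-05), and 0.68 under median-of-ratios scaling.

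Igfbp6 (ENSMUSG00000023046, chr15:102144362-102149511, plus strand), which prefers IGF2 over IGF1, stood at 14.6, 18.4, 10.04 and 14.0 FPKM in control and at 25.7, 22.7, 23.4 and 31.2 FPKM in ANG II. The groups did not overlap. The means were 14.3 ± 3.43 and 25.8 ± 3.87 FPKM. By limma this was 0.83 on the log2 scale (SE 0.161, adjusted p = 0.00334), and 0.61 under median-of-ratios scaling.

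Igfbp3 (ENSMUSG00000020427, chr11:7206086-7213923, minus strand), the main carrier of IGF1 in serum, passed the thresholds with overlapping groups. It stood at 14.5, 18.5, 11.3 and 15.1 FPKM in control and at 24.0, 18.0, 34.8 and 20.2 FPKM in ANG II. Control 2 lay above ANG II 2, and ANG II 3 stood above every other library. The means were 14.8 ± 2.93 and 24.2 ± 7.43 FPKM. In the limma fit the difference was 0.65 (log2; SE 0.195, adjusted p = 0.0285), and an exact permutation test, two-sided, gave p = 0.0571. Without control 3 and ANG II 3, a choice made after the data had been seen, the log2 fold change was 0.35 (limma, adjusted p = 0.0811), and under median-of-ratios scaling it was 0.43 (limma, adjusted p = 0.133). Igfbp1, its neighbour on chromosome 11 and mainly a liver gene, was listed at 0 in all 8 libraries, where 3 fragments would give 0.119 to 0.136 FPKM.

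The same 2 libraries were the extremes of the atrial markers. The summed FPKM of the 5 atrial markers was 55.2, 54.1, 6.70 and 26.3 in control and 136, 75.4, 241 and 61.0 in ANG II. Control 3 was lowest and ANG II 3 highest, as for Igfbp3 and Igfbp4. This was not particular to the atrial markers. The macrophage sum (173 and 578 FPKM) and the adipocyte sum (0.673 and 13.7 FPKM) were also lowest in control 3 and highest in ANG II 3. By limma 2 of the 4 atrial markers tested passed both thresholds, Sln and Nr2f2, while Myl4 and Myl7 missed the adjusted p. The part of these cell types in the Igfbp3 result was not tested. The other binding proteins that rose also did so without these 2 libraries, with log2 fold changes of 0.79 (Igfbp4), 0.61 (Igfbp5), 0.72 (Igfbp6), 1.74 (Igfbp7) and 1.99 (Igfbp2), and Igf1 with 1.66.

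**Figure D2:**
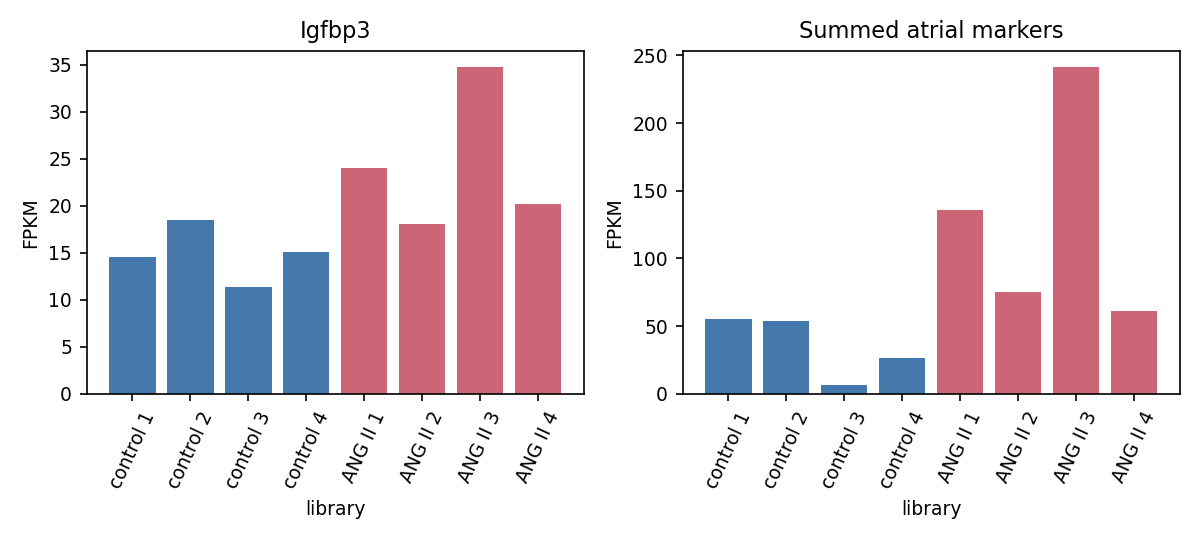
Igfbp3 (left) and the sum of 5 atrial cardiomyocyte markers (right) in each library, in FPKM on the vertical axes, with 4 control libraries in blue and 4 ANG II libraries in red. Control 3 has the lowest and ANG II 3 the highest bar in both panels (Igfbp3 11.3 and 34.8 FPKM, atrial markers 6.70 and 241 FPKM). The macrophage and adipocyte sums, not drawn, had their extremes in the same libraries.

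**Figure D3:**
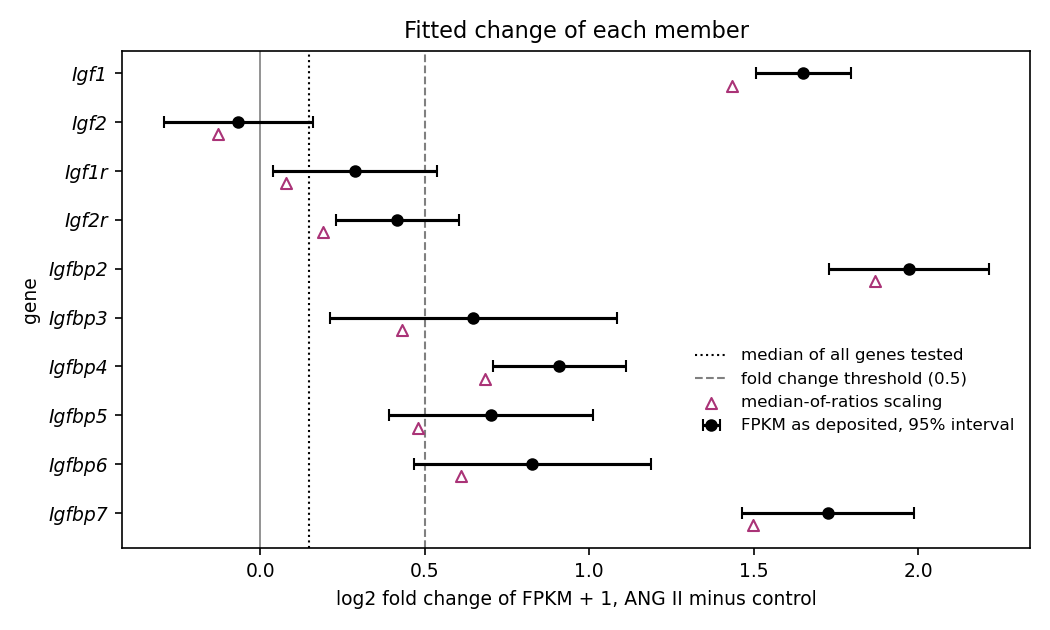
Log2 fold change of FPKM + 1, ANG II minus control, for each member (horizontal axis). Circles with bars are limma estimates with 95% intervals from the FPKM as deposited (4 libraries a group), open triangles are the estimates after median-of-ratios scaling, the dotted line is the median of all genes tested (0.15) and the dashed line the fold threshold (0.5). Igf1, Igfbp2 and Igfbp7 stand above 1.4 under both scalings, Igfbp3 and Igfbp5 drop under the threshold after rescaling, and no member changes sign.

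The order of the levels in FPKM differed between the groups. In control it ran from Igfbp7 through Igf2r, Igfbp4, Igfbp5, Igfbp3, Igfbp6, Igf1r, Igf1 and Igf2 to Igfbp2. In that order Igf2r and Igfbp4 were not apart beyond their ranges, and neither were the neighbours in the run from Igfbp3 through Igfbp6 and Igf1r to Igf1. In ANG II it ran from Igfbp7 through Igfbp4, Igf2r, Igfbp5, Igf1, Igfbp6, Igfbp3, Igf1r and Igfbp2 to Igf2, and of the neighbours only Igfbp6 and Igfbp3 overlapped.

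The binding proteins were also read as shares of their own sum, and such a share does not depend on how the libraries are scaled. The 6 binding proteins summed to 238, 265, 193 and 238 FPKM in control and to 647, 599, 551 and 582 FPKM in ANG II. On these deposited values all ANG II sums were more than 2 times the highest control sum. Unlike the shares, the sums depend on the scaling of the libraries. Igfbp7 made up 46.8%, 51.2%, 50.3% and 45.1% of the sum in control and 67.0%, 67.1%, 57.4% and 60.5% in ANG II. Its share was higher in every ANG II library (48.4 ± 2.87% against 63.0 ± 4.83%).

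The shares of Igfbp4 and Igfbp5 were lower in every ANG II library although their own levels rose. The Igfbp4 share was 29.5%, 23.4%, 27.1% and 28.1% in control and 18.7%, 18.0%, 23.2% and 20.2% in ANG II, so that ANG II 3 came just under control 2. The Igfbp5 share was 11.4% to 14.6% in control and 6.14% to 9.88% in ANG II. The shares of Igfbp3 and Igfbp6 overlapped between the groups, and that of Igfbp2 stayed under 1% in all 8 libraries. Igf1 per 100 FPKM of binding proteins was 4.54, 3.83, 5.53 and 4.01 in control and 5.45, 6.06, 6.29 and 5.44 in ANG II. Control 3 lay above 2 of the ANG II libraries, so ligand and summed binding proteins were not separated in their ratio (4.48 ± 0.762 against 5.81 ± 0.433).

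**Figure D4:**
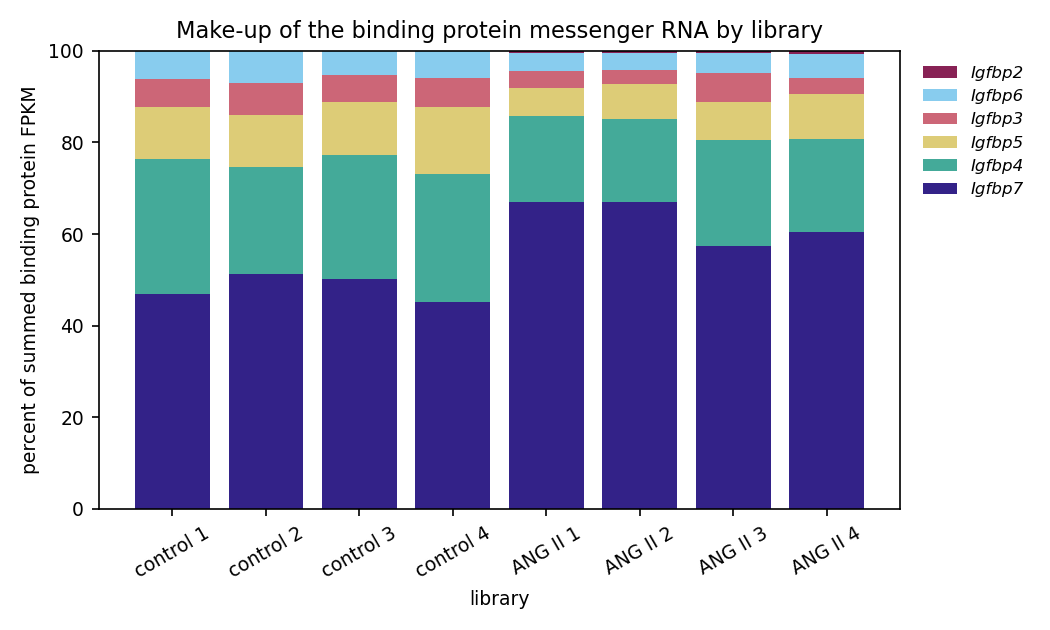
Each binding protein as a percent of the summed FPKM of the 6 binding proteins (vertical axis) in each of the 8 libraries (horizontal axis). The Igfbp7 segment takes 45.1% to 51.2% in the control libraries and 57.4% to 67.1% in the ANG II libraries, with smaller Igfbp4 and Igfbp5 segments in ANG II.

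The other genes of the pathway were counted by role. Of 60 listed genes 55 were tested, and 9 rose and 0 fell (16.4% and 0%), close to the 14.0% and 1.41% of all genes tested (limma). At an unadjusted p-value under 0.05, 7 were lower, and voom on the recovered fragments called 1 lower, Igfbpl1. Their median log2 fold change was 0.16, against 0.15 over all genes tested.

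Among the partners and proteases of the binding proteins, 2 of 8 tested genes rose. Adam12, a metalloproteinase that cleaves Igfbp3 and Igfbp5, stood at 0.372, 0.491, 0.406 and 0.527 FPKM in control and at 6.62, 4.97, 8.39 and 3.62 FPKM in ANG II. The groups were far apart. On the log2 scale limma gave 2.20 (SE 0.196, adjusted p = 4.62e-05). Stc1, an inhibitor of the pappalysins, went from 0.850 ± 0.369 to 2.05 ± 0.451 FPKM (log2 fold change 0.73, limma, adjusted p = 0.00863), but under quantile normalization Stc1 did not pass (0.48, limma, adjusted p = 0.0883).

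Pappa, which encodes the protease pappalysin-1, stood at 0.0878, 0.106, 0.0712 and 0.0949 FPKM in control and at 0.371, 0.387, 0.414 and 0.278 FPKM in ANG II. The groups did not overlap. Its fragments numbered 60 in control and 248 in ANG II, a ratio of 4.05 per library size (95% exact interval 3.04 to 5.46, counting error only), but at these low values the log2(FPKM + 1) scale gave 0.32 (limma, adjusted p = 0.0112), under the fold threshold. With a pseudocount of 0.1 the gene passed both thresholds. Htra1, a secreted serine protease, averaged 68.7 ± 4.47 against 49.3 ± 2.36 FPKM (control against ANG II) without overlap (log2 fold change -0.47, limma, adjusted p = 0.000285).

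Of the genes that regulate the ligands, 0 of 7 tested passed both thresholds by limma, and voom likewise called 0. Without the fold threshold, 3 had an unadjusted and an adjusted p-value under 0.05 by limma (H19, Ghr and Furin). The same 3 had an adjusted p-value under 0.05 by voom (0.0264, 0.000134 and 0.000543). Under median-of-ratios scaling H19 and Furin no longer had an adjusted p-value under 0.05 (0.286 and 0.208), while Airn and Pcsk6 did, both lower (0.00822 and 0.0107). H19, the noncoding RNA imprinted with Igf2, stood at 16.7, 17.3, 13.8 and 13.5 FPKM in control and at 17.6, 26.7, 17.1 and 25.1 FPKM in ANG II. ANG II 2 and 4 were high, and ANG II 3 lay within the control range. Its log2 fold change was 0.45 (SE 0.151; limma, adjusted p = 0.0444) on the deposited values and 0.23 under median-of-ratios scaling (limma, adjusted p = 0.286), and it passed both thresholds without control 2, ANG II 1 or ANG II 3. The growth hormone receptor gene Ghr, which drives Igf1 transcription in liver, averaged 116 ± 2.08 against 88.3 ± 5.11 FPKM (control against ANG II) without overlap (log2 fold change -0.39, limma, adjusted p = 0.000339).

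In the insulin receptor family and its adaptors, 2 of 10 tested genes rose. Shc1, an adaptor that links the receptors to Ras, went from 17.8 ± 1.13 to 32.6 ± 3.79 FPKM (log2 fold change 0.83, limma, adjusted p = 0.000105), and Socs2, a feedback inhibitor of growth hormone signalling, from 30.6 ± 2.79 to 47.6 ± 1.91 FPKM (log2 fold change 0.63, limma, adjusted p = 0.000152). Socs2 missed the fold threshold under median-of-ratios scaling (0.40), under quantile normalization (0.45) and without mitochondrially encoded and the 10 most abundant genes (0.48). Insr, the insulin receptor, stood at 56.3, 60.6, 61.1 and 61.3 FPKM in control and at 60.0, 68.4, 56.6 and 65.4 FPKM in ANG II. The groups overlapped, and its log2 fold change was 0.06 on the deposited values and -0.16 under median-of-ratios scaling (limma, adjusted p = 0.511 and 0.123). Grb10, an imprinted adaptor that restrains the insulin and IGF1 receptors, averaged 58.5 ± 5.65 and 80.0 ± 10.1 FPKM without overlap (log2 fold change 0.44, limma, adjusted p = 0.00633), under the fold threshold, and under median-of-ratios scaling the value was 0.21 (limma, adjusted p = 0.138). Without ANG II 3 Grb10 passed both thresholds (0.51, limma, adjusted p = 0.00341).

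Of the genes of PI3K, Akt and mTOR, 4 of 25 rose. Inpp5d, a lipid phosphatase of blood cells, went from 4.89 ± 0.516 to 11.3 ± 1.20 FPKM (log2 fold change 1.07, limma, adjusted p = 5.57e-05), and Eif4ebp1, the translational repressor that mTOR inactivates, from 25.7 ± 3.01 to 45.4 ± 1.58 FPKM (0.80, limma, adjusted p = 7.27e-05). Pik3r3, a regulatory subunit of PI3K, had a log2 fold change of 0.78 (limma, adjusted p = 0.00045) and missed the fold threshold under quantile normalization (0.48). Igf1r's main substrates Irs1 and Irs2 and the kinase Mtor did not pass. Of the atrophy genes that FoxO factors induce, 1 of 5 rose, namely Bnip3, a mitophagy receptor, from 83.3 ± 6.24 to 166 ± 25.9 FPKM (log2 fold change 0.97, limma, adjusted p = 0.000102). The muscle ubiquitin ligase Trim63 had a log2 fold change of -0.43 (limma, adjusted p = 0.00205).

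The count of 0 falling genes in these lists depended on the scaling. Under median-of-ratios scaling 7 pathway genes rose and 4 fell, and under quantile normalization 5 rose and 5 fell. Htra1, Ghr, Grb14 and Trim63, singled out after their values had been seen, were the 4 that fell under median-of-ratios scaling. Over all genes tested, 90.8% of the calls were higher on the deposited values, 67.5% after median-of-ratios scaling and 58.9% after quantile normalization. Under median-of-ratios scaling 5 of the 10 members rose and 0 fell, where 8.62% of all genes tested rose and 4.15% fell. Under quantile normalization 6 rose and 0 fell, where 7.30% of all genes tested rose and 5.09% fell.

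**Figure D5:**
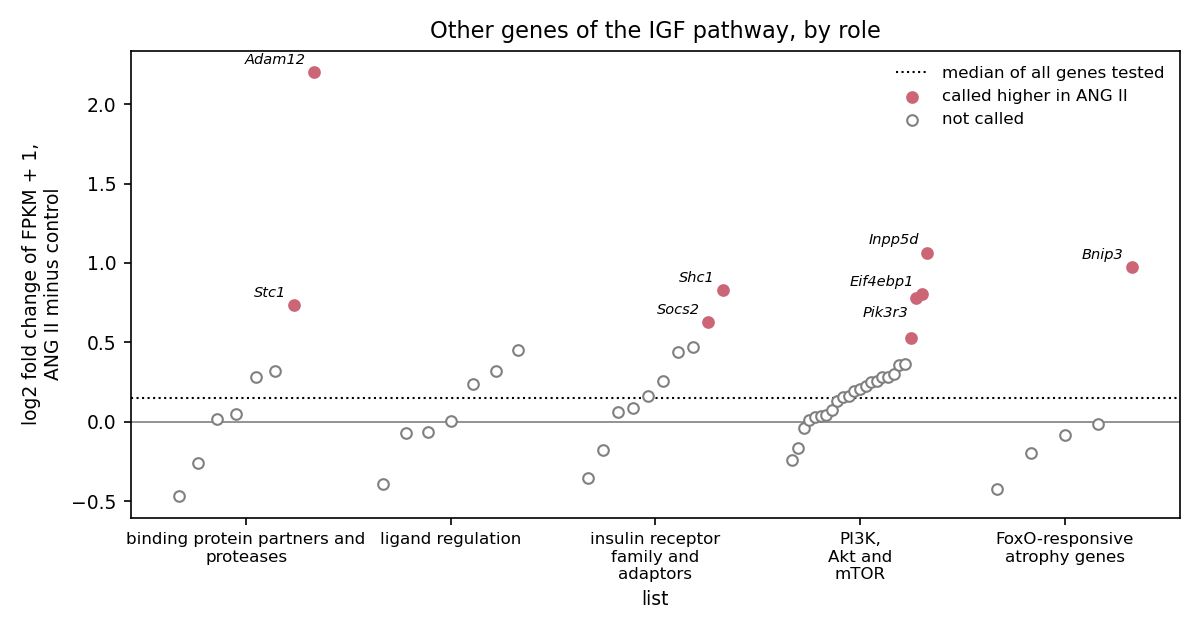
Log2 fold change of FPKM + 1, ANG II minus control (vertical axis), of the 55 tested pathway genes in 5 lists (horizontal axis), ordered by value within each list, from 4 libraries a group. Filled red points passed both thresholds (9 genes), with the names of those reported singly, open points did not, and the dotted line is the median of all genes tested (0.15). Adam12 stands highest at 2.20, and under median-of-ratios scaling 4 of the open points below 0 would pass as lower.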

How the data were processed

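RNA-seq of polyadenylated RNA from 8 mouse left ventricles (4 control and 4 ANG II, grouped by the treatment label and numbered by the title) was used. For these libraries the authors deposited FPKM in one shared table, a column for each library, with nothing pooled. The submitters' processing notes name HISAT, Bowtie2 and RSEM without versions or roles. The genome build, the annotation and the use of strand were not given in the sources used here, and how genes listed near 0 came about is not known. No value column was left out. That the libraries are separate mice rests on the study's methods, which call them biological replicates but state a larger number for each group than the 4 used here. The label on RNA extraction names cells and not ventricle tissue.

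The deposited FPKM were tested with limma 3.58.1 in R 4.3.3 (lmFit, eBayes, variance trend on) as log2(FPKM + 1), without covariates, for the 19364 genes whose mean reached 0.1 FPKM. Two-sided p-values received Benjamini-Hochberg adjustment over these genes. A gene was called at an adjusted p-value under 0.05 and an absolute log2 fold change above 0.5. These 2 thresholds are the study's, whereas base 2, the pseudocount and the filter were choices of this work. Fold changes on this scale understate those of low genes. Exact permutation tests ran over all 70 allocations of the 8 libraries, with a smallest possible p-value of 0.0286. The test was checked on simulated data with known changes.

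Fragments were recovered from the steps of FPKM times the mean transcript length in GENCODE M21 (GRCm38), where 55141 gene IDs were found. Within a tolerance of 0.1, 99.3% to 99.5% of low values of genes with 1 exon were whole, and 98.9% to 99.2% of those of genes with 1 transcript and several exons. Floors are 3 fragments. Without molecular identifiers, floors and intervals reflect counting error alone. Upstream sequences came from RefSeq (GRCm38.p6), in which all 10 members were found. Python 3.11.15, pandas 2.3.3 and scipy 1.17.1 were used.

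The members, the lists of pathway genes and markers, and the rule for naming genes were chosen with earlier results of these data known. The rule named all members, the called genes of each pathway list (up to 4 per direction), and Igfbp1, Insr, Pappa, H19, Airn and Grb10. Htra1, Ghr, Grb14, Trim63, Igfbpl1, Furin, Pcsk6, Irs1, Irs2 and Mtor were named outside it, after their values had been seen. A gene that the rule picks is not reported here singly, and counts keep it. Alternatives changed the pseudocount, the filter, the scaling of the libraries, the variance trend, the replicate block, the thresholds, and each library left out in turn, and 2 were added after the data had been seen.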

Additional observations from a re-analysis of the deposited data

Results flagged for a closer look

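Within groups of 4 libraries, a library was singled out when its gap to the next value was too large a part of the group's range by Dixon's test at 95%, which chance gives in about 1 of 20 groups. All genes picked by the naming rule and all ratios, sums and shares within libraries were examined in both groups. A few such gaps can therefore arise by chance alone. In control, the summed FPKM of the binding proteins other than Igfbp7 was lowest in control 3, at 96.3 FPKM against 127 to 131 FPKM in the other 3 libraries (gap over range 0.885). Control 3 was also the lowest control library for Igfbp3, Igfbp4, Igfbp5, Igfbp6 and Igfbp7 each. The summed fibroblast markers were lowest in the same library, at 1083 FPKM against 1392 to 1459 FPKM in the other 3. So were the atrial markers, at 6.70 FPKM against 26.3 to 55.2 FPKM. The macrophage sum (173 against 174 to 214 FPKM) and the adipocyte sum (0.673 against 3.63 to 7.30 FPKM) were also lowest there. The same held for the mesothelial sum and the hepatocyte sum near 0, but not for the endothelial and mural sums. The part of these cell types in the low binding proteins was not tested. In control, the Igfbp5 share of the summed binding proteins was highest in control 4, at 14.6% against 11.4% to 11.6% (gap over range 0.943). In control, Insr was lowest in control 1, at 56.3 FPKM against 60.6 to 61.3 FPKM (gap over range 0.867).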

How the results depend on the processing

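Of 20 alternatives, Igf1, Igfbp2 and Igfbp7 passed both thresholds as higher under all, and no member that rose changed sign under any. The 7 members called became 3 with an absolute log2 fold change above 1 (pathway genes 2 in place of 9, all genes 795 in place of 2981) and 8 by adjusted p-value alone (pathway genes 24, all genes 6447). They were 5 under median-of-ratios scaling, where the members' median log2 fold change was 0.54 in place of 0.76, and 6 without a filter, under quantile normalization and without mitochondrially encoded and the 10 most abundant genes. The Insr log2 fold change of 0.06 turned to -0.16 under median-of-ratios scaling, -0.11 under quantile normalization and -0.084 without those genes, never past the test. With the replicate number as a block 6 members were called. The numbers share no source in the labels, so the libraries were not taken as pairs. Deviations of same-numbered libraries correlated at -0.04 to 0.09 across genes, and those of differently numbered libraries at -0.12 to 0.15. With 4 libraries a group these correlations cannot decide whether there was a pairing.

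Leaving out 1 library at a time gave 6 to 7 members called, a median of 0.64 to 0.83, 9 to 12 pathway genes, 2763 to 3109 genes over the whole table and an Igfbp7 share 13.3 to 16.5 percentage points higher in ANG II. Igfbp3 lost its call without control 1, 3 or 4 or ANG II 1 or 3, without a filter, with the block and under all 3 scalings, with log2 fold changes of 0.35 to 0.77 over all alternatives. Igfbp5 lost it under median-of-ratios scaling. Voom on the recovered fragments called 7 members. At 7 to 16 Igf2 fragments and 0 to 3 control Igfbp2 fragments per library, both values were imprecise. The causes were not tested.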
